A study of Mus musculus with 3 samples.

Results

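The epidermal differentiation complex is a cluster of genes on mouse chromosome 3 that encode structural and signalling proteins of the outer epidermis. Its members were taken as the protein-coding genes in a window of 3.2 Mb on chromosome 3 (mm10) whose symbol begins with S100a, Sprr, Lce or Flg, together with Lor, Ivl, Hrnr, Rptn, Tchh, Tchhl1, Crnn, Crct1, Smcp, Pglyrp3 and Pglyrp4. This gave 63 genes, from S100a1 to S100a10 (chr3:90511034-93564645), of the 21900 protein-coding genes in the annotation. Peaks of chromatin immunoprecipitation sequencing (ChIP-seq) were mapped over the whole window, called the locus here, between genes as well as over them. The locus held 44 of the 18087 peaks of the DLX3 library and 19 of the 16735 peaks of the H3K4me3 library.

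The chromatin came from suprabasal keratinocytes, the epidermal cells above the basal layer, of wild type mice of the BALB/c strain. One antibody was raised against DLX3, a homeodomain transcription factor, and the other against H3K4me3, the trimethylated lysine of histone H3 found at active promoters. A further library was made with IgG and is not analysed here. Each antibody had 1 library, so no value below has a replicate error, and no test was made. The labels call the animals adult, whereas the series design describes newborn epidermis and a Percoll gradient, and the peak lists do not tell these apart. Each library pooled the chromatin of many cells, so a mark in few cells and a weak mark in many cannot be told apart.

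Cornification replaces the plasma membrane of a dying keratinocyte with a shell of proteins cross-linked by transglutaminases. Loricrin (Lor), involucrin (Ivl), the small proline-rich proteins (Sprr) and the late cornified envelope proteins (Lce) are building blocks of that shell. The genes of filaggrin and its relatives join an S100-type calcium-binding domain to long repeats. Filaggrin itself bundles keratin filaments and is broken down to amino acids that hold water. The S100a genes encode small calcium-binding proteins, several of them active in inflamed skin, and Pglyrp3 and Pglyrp4 encode secreted proteins that bind bacterial peptidoglycan.

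Within the locus, both antibodies had peaks at S100a genes and at single genes such as Lor and Tchh. Of the 44 DLX3 peaks, however, 23 lay more than 5 kb from every member's end. The long arrays of Sprr2, Lce1 and Lce3 genes held no peak of either antibody. Counting DLX3 peaks no more than 5 kb from either end of the gene span, 16 of 63 members had 1 or more (25.4%, 95% Wilson interval 16.3 to 37.3), against 35.8% of all protein-coding genes. For H3K4me3, with a limit of 1 kb, the count was 13 of 63 (20.6%, 12.5 to 32.2), against 59.3% of all protein-coding genes. Of the members, 10 had both, 6 had DLX3 alone, 3 had H3K4me3 alone and 44 had neither. The 16 members with DLX3 rested on 21 distinct peaks, since some members had more than 1. The 13 with H3K4me3 rested on 12. For both antibodies, some neighbouring genes shared a peak. With a limit of 1 kb for DLX3, 9 members had a peak (14.3%, beside 27.6% of all protein-coding genes), and 3 had a peak in the top 20% of DLX3 scores. The score is the authors' own for each peak and has the form of the significance score that MACS writes; the files name no unit. Intervals here cover counting error only.

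The S100a family supplied most of these genes. DLX3 was found at 9 of its 15 members (interval 35.7 to 80.2%) and H3K4me3 at 9, and 8 had both. Among the 48 other members, 7 had DLX3 (14.6%, 7.25 to 27.2) and 4 had H3K4me3 (8.33%, 3.29 to 19.6). In the Sprr family DLX3 was at 1 of 14 and H3K4me3 at 0, and among the 22 Lce genes with Crct1 each was at 1. Of the 7 genes of the fused S100 type (Crnn, Flg2, Flg, Hrnr, Rptn, Tchh and Tchhl1), 2 had DLX3 and 1 had H3K4me3. Both Pglyrp genes had DLX3 and neither had H3K4me3.

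**Figure D1:**
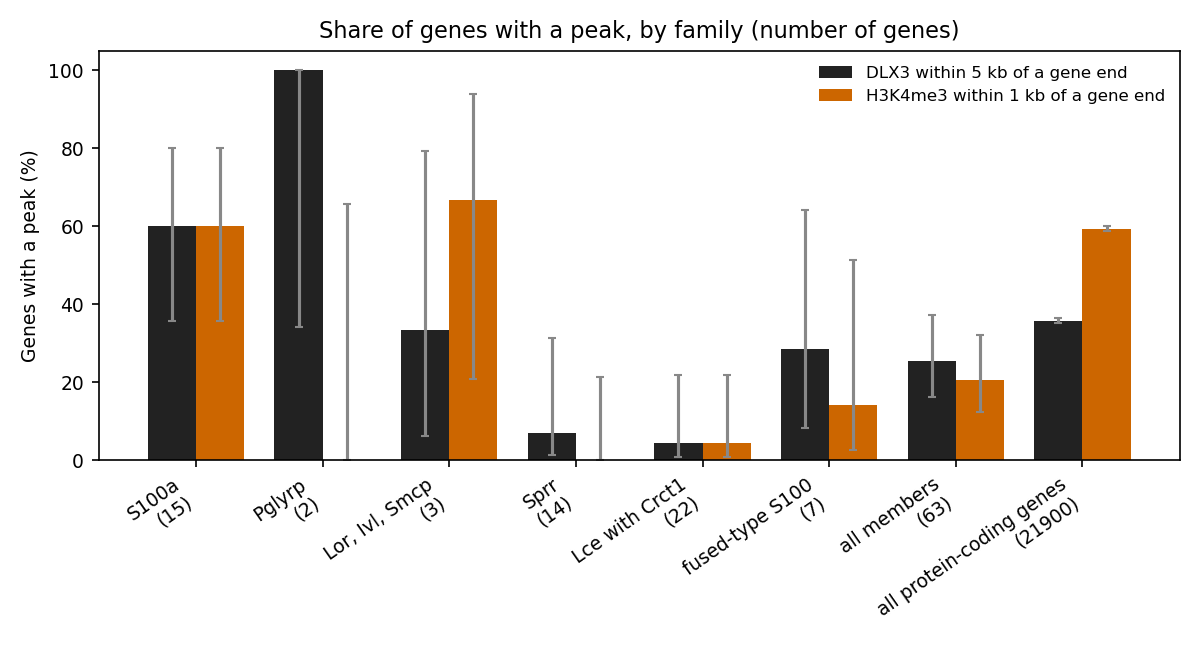
Share of genes (%) with a DLX3 peak within 5 kb (black) or an H3K4me3 peak within 1 kb (orange) of a gene end, by family, with 95% Wilson intervals and the number of genes in brackets. The S100a bars stand at 9 of 15 genes, and the bars of all protein-coding genes at 35.8% (DLX3) and 59.3% (H3K4me3). The Sprr and Lce bars lie at or below 7.14%.

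Members with and without H3K4me3 differed in DLX3 in the direction seen over all genes. Of the 13 members with H3K4me3, 10 had DLX3 (76.9%, 49.7 to 91.8), beside 54.8% of all marked protein-coding genes. Of the 50 without it, 6 had DLX3 (12.0%, 5.62 to 23.8), beside 8.11% of all unmarked genes. Those 6 were S100a2, Pglyrp3, Pglyrp4, Sprr1a, Lce6a and Crnn. Genes that share a peak are not independent, so these shares describe the locus.

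In position along the chromosome, the peaks fell into islands. The locus had 13.8 DLX3 peaks per Mb against 5.87 over chromosome 3, and 5.94 H3K4me3 peaks per Mb against 5.0. It was also dense in genes, with 74 protein-coding genes (23.1 per Mb against 6.15), so there were 0.595 DLX3 peaks per protein-coding gene in the locus and 0.955 on chromosome 3. For H3K4me3 the ratios were 0.257 and 0.813. The stretch from S100a1 to Pglyrp4, with 5 kb on either side (240.5 kb, 13 members), held 14 DLX3 and 6 H3K4me3 peaks, or 5.82 and 2.49 per 100 kb. By contrast, no peak of either list lay in the 228.1 kb round the 10 Sprr2 genes, the 214.8 kb from Lce1a1 to Lce1l or the 78.1 kb of the Lce3 genes, each again with 5 kb on either side.

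**Figure D2:**
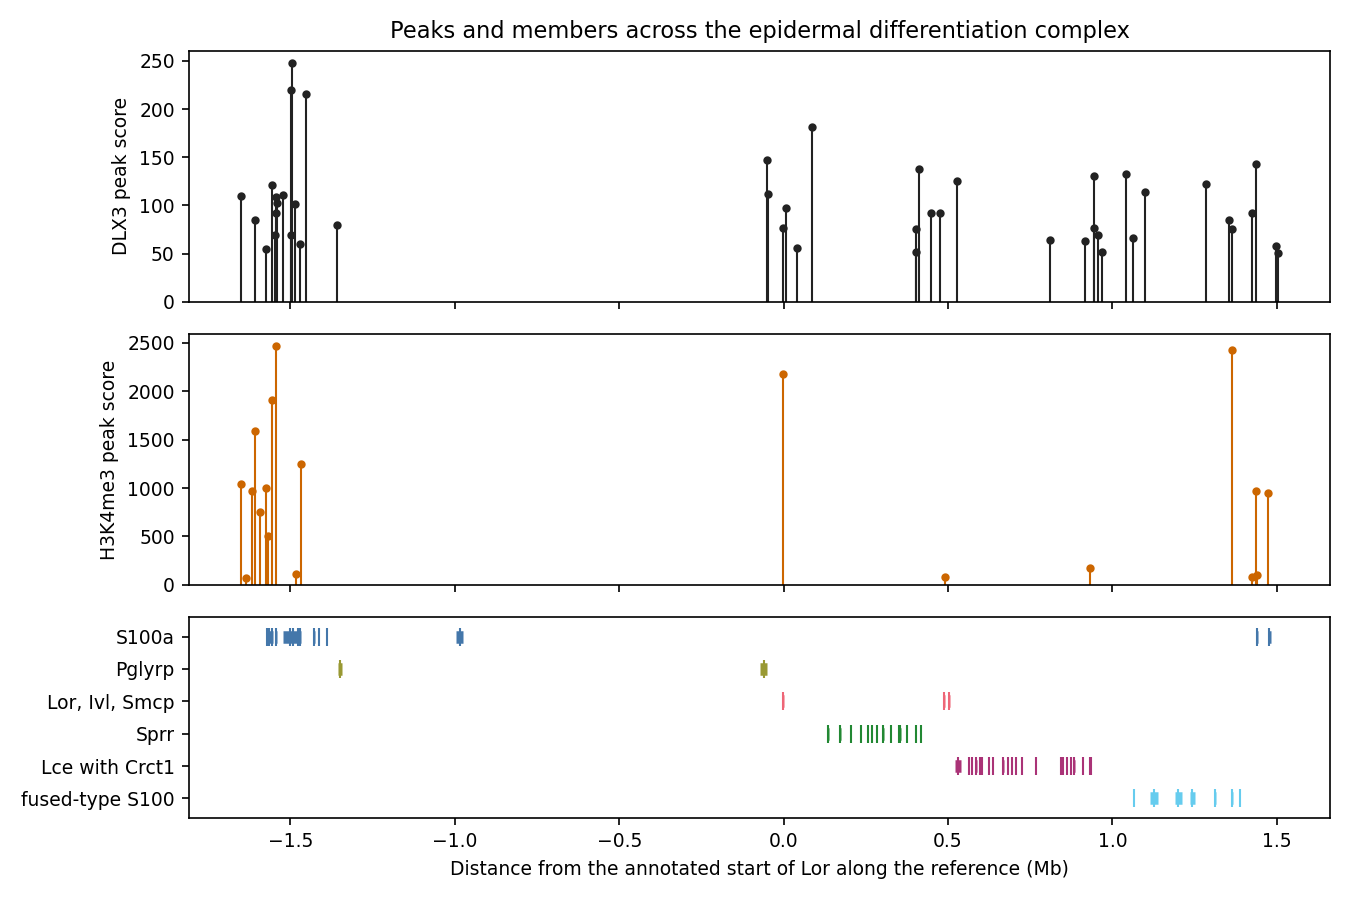
Score of each DLX3 peak (top) and H3K4me3 peak (middle) and the gene spans by family (bottom), against the distance in Mb from the annotated start of Lor along the reference. The peaks stand in islands, with an empty stretch of 1309.0 kb left of Lor and empty stretches over the Sprr and Lce arrays.

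The longest stretch without a peak of either kind, 1309.0 kb, ran from just before Pglyrp4 to just past Pglyrp3 (chr3:90724707-92033699) and held 3 members, these genes and S100a7l2. The next was 315.1 kb long (chr3:92170716-92485818) and held 12 whole Sprr genes. A stretch of 283.7 kb held 13 Lce genes, 1 of 185.5 kb held Flg2, Flg and Hrnr, and 1 of 105.7 kb held the 6 Lce3 genes. These 5 stretches over 100 kb held 37 of the 63 members whole. Over all members, the nearest DLX3 peak lay at a median of 32.1 kb from a gene end, and for 39 members it was more than 20 kb away.

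Among the S100a genes, S100a16 had 4 DLX3 peaks within 5 kb of its ends and S100a3, over whose longer span 4 also lay, had 2. S100a16 (chr3:90537254-90543151, plus strand) encodes a calcium-binding protein of many epithelia. The 4 peaks of S100a16 had scores of 69.53, 92.43, 108.54 and 102.51 in order of position. All 4 lay in 1 H3K4me3 peak of 6208 bp (score 2468.13), the widest and highest-scoring H3K4me3 peak of the locus. The first of them was centred 57 bases before the gene's first annotated start. S100a14, whose product is also found in epithelia, had 1 DLX3 peak (chr3:90526102-90527166; score 121.36) over an end of the gene. An H3K4me3 peak of 3927 bp (score 1907.67) covered 100% of its 1989 bp.

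At S100a6, which encodes calcyclin, a DLX3 peak (chr3:90612785-90613260) was centred 128 bases after the start. Its score of 59.49 stood at percentile 19.2 of the DLX3 list. The H3K4me3 peak there (3718 bp, score 1249.07) covered the whole gene of 1521 bp. S100a5 was counted through both of these S100a6 peaks, and no peak lay over its own span. S100a11, whose product is a binding partner of annexin A1 and a component of the cornified envelope, had a DLX3 peak (chr3:93520110-93521192; score 142.6, percentile 81.3) centred 155 bases after its start, inside H3K4me3 of score 967.93. A second, narrow H3K4me3 peak of 838 bp (score 99.33) began 1986 bases after that start.

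S100a10, the annexin A2 partner, had H3K4me3 of 3208 bp (score 946.32) and no DLX3 within 5 kb, the nearest peak being 16123 bp from an end. The divergent starts of S100a1 and S100a13 lay under 1 H3K4me3 peak of 2219 bp (score 505.99), which held no DLX3. The H3K4me3 peak nearest the other end of S100a1 (score 1001.39) and the DLX3 peak in it (54.18) both touched Chtop, a neighbouring gene outside the families. S100a13 was counted through that DLX3 peak and through the 1 at S100a14. In all, a DLX3 peak touched the span of 10 members and H3K4me3 touched that of 12.

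The highest DLX3 scores of the locus lay inside the S100a3 span, away from H3K4me3. A pair of neighbouring peaks (chr3:90585488-90586679, score 219.97; chr3:90586734-90587529, score 248.07) stood at percentiles 93.5 and 95.4 of the list. S100a3 is a gene of the hair cuticle with 4 annotated starts, and the second peak was centred 179 bases after 1 of these. S100a2 (chr3:90590247-90591508), a gene of epithelial cells, lies within the span of S100a3, and this pair was counted for it, at 3568 and 2718 bp. The nearest H3K4me3 peak was 12441 bp away. It lay over the last S100a3 start and had a score of 109.0. S100a3 itself was counted through a peak of 111.16, 460 bp outside 1 end of its span, and a peak of 101.52, 4264 bp inside the other. A peak of 69.53 lay deeper in the span. A peak of score 215.12 (chr3:90629008-90629816, percentile 93.0) stood in the space between S100a6 and S100a7a, 14594 bp from S100a6, touching no annotated gene.

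S100a8 and S100a9, which encode the subunits of calprotectin, an alarmin of neutrophils and inflamed epidermis, had no peak of either kind. Their nearest DLX3 peaks were 39255 and 28602 bp away. S100a7a, whose human relative is psoriasin, was 22109 bp from the nearest, and S100a7l2, in the longest empty stretch, 363431 bp. S100a4 missed the 5 kb window narrowly, at 5328 bp. The member nearest the limit on its inner side was Lce6a, at 4904 bp.

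**Figure D3:**
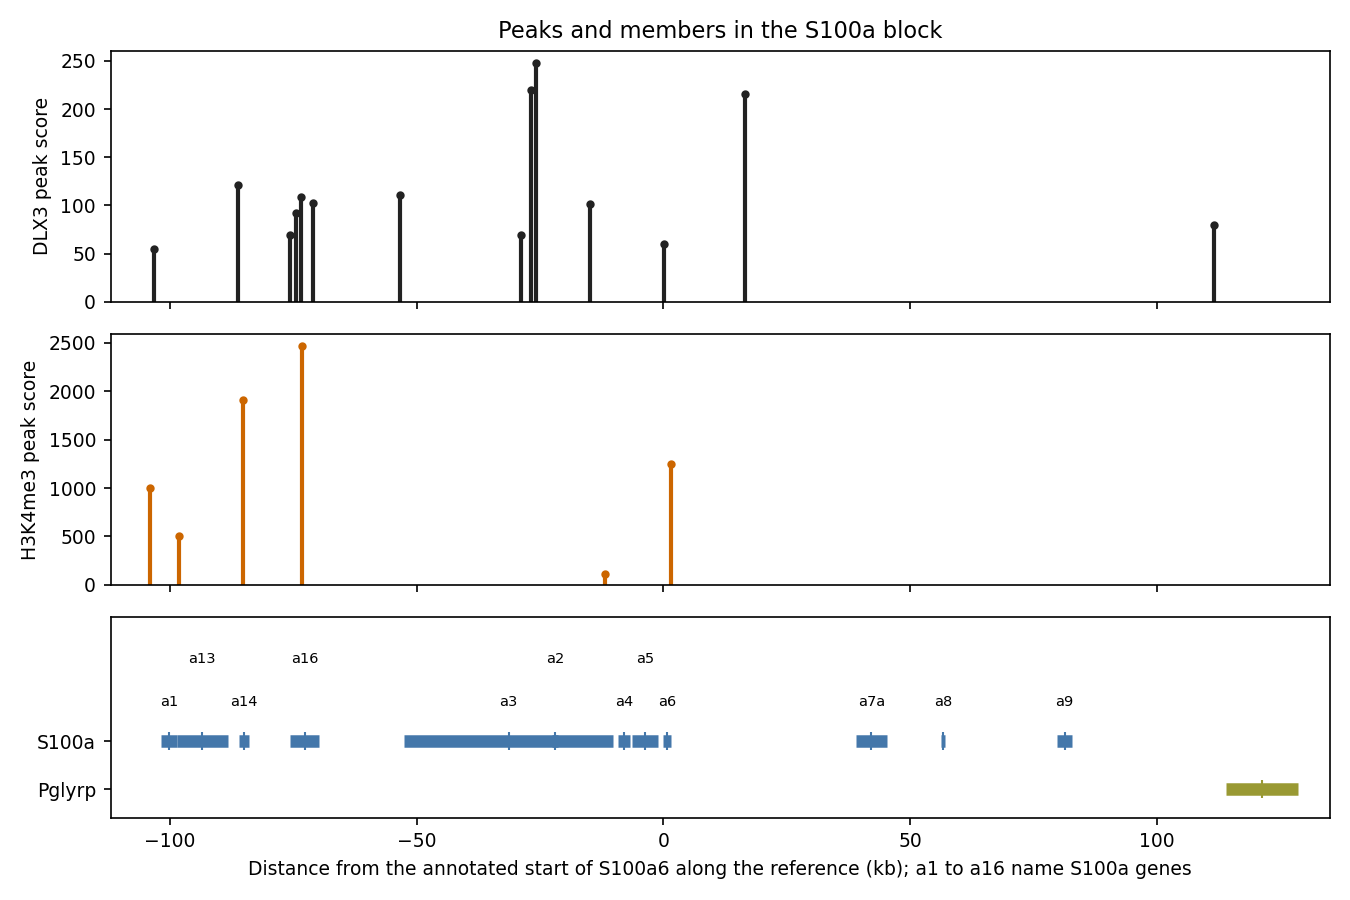
DLX3 scores (top), H3K4me3 scores (middle) and gene spans (bottom) from S100a1 to Pglyrp4, against the distance in kb from the annotated start of S100a6. The 3 highest DLX3 peaks, at 215.12 to 248.07, stand apart from the H3K4me3 peaks, and the stretch with S100a7a, S100a8 and S100a9 holds none.

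In 6 members a DLX3 peak reached the promoter window, from 250 bases before to 50 after an annotated start. A window was found for 56 of the 63 members. The share of 10.7% stood beside 26.1% of all protein-coding genes with a window, and for H3K4me3 the window was reached in 8 of the 56 (14.3%) beside 59.8%. The 6 were S100a16, S100a3, S100a6, S100a11, Sprr1a and Crnn. Sequence before the start is shown for them because here a DLX3 peak and promoter letters can be read side by side. The text is that of the C57BL/6J reference (RefSeq, GRCm38.p6), not of BALB/c. Letters of 3 kinds were searched on both strands and are in capitals, namely TGANTCA, the AP-1 site, TATAAA, the TATA box, and TAATTG or TAATTA, cores bound by many homeodomain proteins. Each line gives the 150 bases before the start, and for Crnn 250.
S100a16 (chr3:90537104-90537253, plus strand): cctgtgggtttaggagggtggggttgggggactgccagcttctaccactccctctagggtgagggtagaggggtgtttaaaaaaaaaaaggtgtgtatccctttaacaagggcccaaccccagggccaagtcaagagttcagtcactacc
S100a3 (chr3:90586802-90586951, plus strand): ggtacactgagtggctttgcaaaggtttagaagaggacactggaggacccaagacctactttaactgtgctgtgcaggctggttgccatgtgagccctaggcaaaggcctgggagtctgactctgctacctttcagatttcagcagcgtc
S100a6 (chr3:90612744-90612893, plus strand): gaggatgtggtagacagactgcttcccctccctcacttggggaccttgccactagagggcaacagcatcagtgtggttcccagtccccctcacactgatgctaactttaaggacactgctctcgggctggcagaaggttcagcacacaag
S100a11 (chr3:93520346-93520495, plus strand): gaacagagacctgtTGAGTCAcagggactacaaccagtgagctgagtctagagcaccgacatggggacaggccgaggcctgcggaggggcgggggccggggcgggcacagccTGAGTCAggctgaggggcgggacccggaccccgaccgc
Sprr1a (chr3:92485882-92486031, minus strand): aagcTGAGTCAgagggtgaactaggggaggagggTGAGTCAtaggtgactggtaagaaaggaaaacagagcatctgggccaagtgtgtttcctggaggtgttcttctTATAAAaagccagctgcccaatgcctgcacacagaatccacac
Crnn (chr3:93144539-93144788, plus strand): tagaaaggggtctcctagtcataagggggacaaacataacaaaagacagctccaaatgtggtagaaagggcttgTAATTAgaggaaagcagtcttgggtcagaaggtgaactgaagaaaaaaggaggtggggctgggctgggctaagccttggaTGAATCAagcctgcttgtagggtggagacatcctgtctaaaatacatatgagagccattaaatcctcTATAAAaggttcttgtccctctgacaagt

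S100a11 and Sprr1a each held a pair of AP-1 matches in these bases. In S100a11 they began 136 and 38 bases before the start, and in Sprr1a 146 and 116 bases before it. Crnn had 1 AP-1 match, at 96 bases, a TATA box at 29 and, alone among the 6, a homeodomain core, at 176. The S100a6 window held no match of any of the 3 kinds, and neither did the windows of the S100a16 and S100a3 starts that DLX3 reached. Among the other starts of these genes, the second of S100a16 had AP-1 letters. Of S100a3, 1 had TATA box letters, 52 bases before it, and another, under the weak H3K4me3 peak, a homeodomain core 29 bases before it. A match is a stretch of letters and not a measured site.

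Sprr1a, which encodes a small proline-rich envelope precursor, was the sole Sprr gene with a DLX3 peak within 5 kb. A peak of score 51.87 (chr3:92485819-92486181), near the floor of the list, covered its start, and another of 75.08 stood 456 bp upstream, neither with H3K4me3. A stronger peak of 137.29 (chr3:92493808-92494270) lay between Sprr1a and Sprr4, 5993 bp from the latter. Sprr1b and Sprr3 were 47002 and 27099 bp from the nearest DLX3 peak, and the Sprr2 genes 45.1 to 146.0 kb. The DLX3 peak nearest the Sprr2 array (chr3:92169732-92170715; score 180.91, percentile 89.2) lay 45120 bp before Sprr2a1 and touched only the noncoding locus Gm35439.

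Near-identical copies can lose reads that match several places, and the treatment of such reads is not given in the sources at hand. Words of 36 bases that recur at another place among all promoter windows filled 100% of the Sprr2a1 and Sprr2a2 windows and 89.4% of Sprr2a3. In the other members with a window they filled at most 10.2% (Lce1g). Over all protein-coding genes, 5.09% of windows were filled by more than 50%, and 0.0767% of those that a DLX3 peak reached. The part of read matching in the empty Sprr2 stretch was not tested.

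Lor and Ivl, the classical envelope genes, carried H3K4me3 over all or most of their length, Lor at a high score and Ivl at a low one. At Lor (chr3:92080271-92083142, minus strand) the H3K4me3 peak of 3543 bp (score 2180.19, percentile 85.3) ran from 44 bases before the start to 3498 after it, past the end of the gene. The DLX3 peak inside it, of score 76.44, was centred 1780 bases after the start of this 2872 bp gene and stopped 1347 bp short of the start. Another DLX3 peak of 97.71 lay 7559 bp upstream of Lor. At Ivl (chr3:92570899-92573790, minus strand) an H3K4me3 peak of 2749 bp covered 92.7% of the gene, but its score was 76.82, at percentile 8.80. No DLX3 peak lay within 5 kb of Ivl, the nearest being 1 of 92.56 at 13022 bp. Smcp, a gene of sperm mitochondria that lies in the cluster, had neither.

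The promoters of Lor, Ivl and Flg each held an AP-1 match and TATA box letters. They are shown because these are the best known genes of the complex and DLX3 reached none of their windows.
Lor (chr3:92083143-92083292, minus strand): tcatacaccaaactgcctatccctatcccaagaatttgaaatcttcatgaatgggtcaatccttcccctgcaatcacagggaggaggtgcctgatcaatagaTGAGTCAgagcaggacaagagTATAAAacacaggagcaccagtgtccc
Ivl (chr3:92573736-92573885, minus strand): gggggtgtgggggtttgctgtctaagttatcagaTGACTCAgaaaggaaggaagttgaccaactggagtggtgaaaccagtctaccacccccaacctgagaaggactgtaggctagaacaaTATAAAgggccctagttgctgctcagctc
Flg (chr3:93273396-93273545, plus strand): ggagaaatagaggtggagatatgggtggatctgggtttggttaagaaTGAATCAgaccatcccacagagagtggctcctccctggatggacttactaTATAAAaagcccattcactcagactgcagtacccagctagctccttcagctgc
The AP-1 match began 48 bases before the start in Lor, 116 in Ivl and 103 in Flg. The TATA box began at 27, 29 and 53 bases. None of the 3 windows held a homeodomain core.

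Of the Lce genes, Lce6a alone had a DLX3 peak within 5 kb (chr3:92609725-92610170; score 124.85), inside its annotated span (chr3:92604821-92621660, minus strand) and 11713 bases after the start. Crct1 alone, in this group, had H3K4me3 (2315 bp, score 173.88), which covered 100% of its 1482 bp. The 13 genes from Lce1a1 to Lce1l were 36.4 to 140.0 kb from the nearest DLX3 peak. For the 6 Lce3 genes the distance was 7.0 to 49.8 kb. A peak of 64.03 lay between Lce1l and Lce3a, 30616 bp from the latter, and 1 of 62.58 lay 6977 bp past Lce3f. Upstream of Lce1m stood 4 DLX3 peaks, of scores 130.78, 76.05, 69.53 and 51.57, at 6280 to 31200 bp from it.

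Lce3c, Lce3d and Lce3e are shown as a contrast. Each held the letters TAATTG at a similar place (138, 141 and 136 bases before the start). The nearest DLX3 peaks were 49815, 41829 and 32122 bp away. As genes of the same family, picked for these letters, they are not independent cases.
Lce3c (chr3:92944336-92944485, plus strand): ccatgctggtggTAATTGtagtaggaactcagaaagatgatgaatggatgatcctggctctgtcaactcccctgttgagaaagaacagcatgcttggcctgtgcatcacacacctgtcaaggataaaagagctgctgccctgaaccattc
Lce3d (chr3:92957240-92957389, plus strand): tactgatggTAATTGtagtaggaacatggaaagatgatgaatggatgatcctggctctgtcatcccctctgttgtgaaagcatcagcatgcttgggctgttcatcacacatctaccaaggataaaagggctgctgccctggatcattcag
Lce3e (chr3:92966911-92967060, plus strand): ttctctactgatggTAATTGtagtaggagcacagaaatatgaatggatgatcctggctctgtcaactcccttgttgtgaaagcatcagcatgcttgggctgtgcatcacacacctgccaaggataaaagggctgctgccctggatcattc

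Tchh had the second-highest H3K4me3 score of the locus. Tchh encodes trichohyalin, a protein of the inner root sheath and medulla of hair. Its H3K4me3 peak (chr3:93442992-93448256; 5265 bp, score 2428.34) covered 78.0% of the gene but began 662 bases after the annotated start. A narrow DLX3 peak of 240 bp (score 75.08) lay in that peak, 5776 bases from the start and 851 bp from the far end of the gene. Another DLX3 peak of 84.52 lay 5591 bp upstream of Tchh. At both Lor and Tchh the DLX3 peak thus stood in the body of the gene, beyond the midpoint.

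Crnn, the gene of cornulin, had a DLX3 peak (chr3:93144403-93145004; score 65.59) centred 86 bases before its start, 128526 bp from the nearest H3K4me3 peak. A peak of 132.94 (chr3:93122810-93123391) stood 21398 bp upstream of Crnn and touched the noncoding locus Gm35785. Flg2 had a DLX3 peak of 113.45 at 15945 bp upstream. Flg, the filaggrin gene, was 73182 bp and Hrnr, the hornerin gene, 33299 bp from the nearest. Rptn, the repetin gene, had a peak of 122.11 (chr3:93366871-93367682) 26017 bp upstream, and Tchhl1 was 20528 bp from its nearest. None of Flg, Flg2, Hrnr, Rptn and Tchhl1 had H3K4me3 within 1 kb.

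Pglyrp3 had a pair of DLX3 peaks just outside the gene, at 1028 and 1845 bp (scores 147.5 and 112.08), and Pglyrp4 1 of 80.08 at 2200 bp. These 3 peaks were 44408 to 107981 bp from the nearest H3K4me3.

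Of the 44 DLX3 peaks in the locus, 21 lay within 5 kb of a member's end and 23 did not. Only 20 (45.5%) touched the span of a protein-coding gene, against 64.4% of the whole list, and 22 touched no annotated gene at all. H3K4me3 was shared, by at least 1 bp, by 13 of the 44 (29.5%, 18.2 to 44.2), against 42.1% of the list. The peaks with H3K4me3 had a median score of 91.94 in the locus and those without it 92.56, whereas over the whole list the medians were 93.79 and 76.83. All 6 locus peaks in the top 20% of DLX3 scores except that at S100a11 lacked H3K4me3. They were the pair and the space peak of the S100a block, the peak before Sprr2a1, and the stronger of the pair at Pglyrp3.

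**Figure D4:**
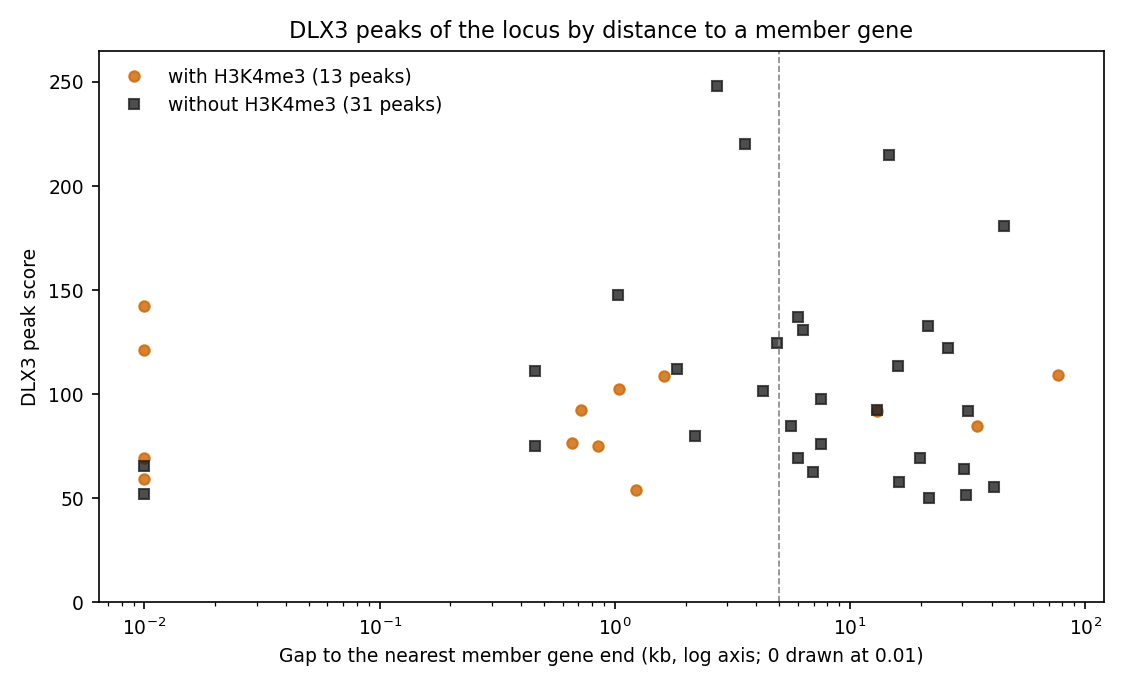
Score of each of the 44 DLX3 peaks against its gap to the nearest member gene end (kb, log axis), with H3K4me3 (13, circles) and without (31, squares), and the 5 kb limit as a dashed line. The 4 highest scores, 180.91 to 248.07, belong to peaks without H3K4me3, on both sides of the limit.

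The remaining DLX3 peaks stood at the edges of the locus or by other genes. Peaks at Ints3 (109.28) and Ilf2 (84.73) lay in H3K4me3 of scores 1045.35 and 1592.2, and 1 of 55.67 touched Prr9. A peak of 91.78 lay between Sprr4 and Ivl, 31774 bp from Sprr4. A peak of 91.94 overlapped a weak H3K4me3 peak (1311 bp, score 79.93) 12997 bp before S100a11, touching no gene, and peaks of 57.7 and 50.02 lay beyond S100a10. Of the 19 H3K4me3 peaks, 10 (52.6%, 31.7 to 72.7) held DLX3, against 40.7% of the list. The median H3K4me3 score was 1420.64 for these 10 and 173.88 for the 9 others. Over the whole list the medians differed in the same direction, at 1429.39 with DLX3 and 492.84 without.

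AP-1 and TATA box letters were frequent in the members' promoter windows. TGANTCA was present in 19 of 60 windows (31.7%), against 6.99% of 21263 windows of all protein-coding genes, and TATAAA in 25 (41.7%) against 12.6%. With its first base 35 to 25 bases before the start, on the gene's own strand, TATAAA was found in 31.7% of member windows and 2.30% of all. The homeodomain cores were present in 10 of 60 (16.7%) against 10.7%. AP-1 letters stood in 9 of 14 Sprr windows and 5 of 7 of the fused S100 type, but in 0 of 20 Lce windows. TATA letters stood in 10 of 14 Sprr windows and 4 of 20 Lce windows, and at the placement given above in 9 and 2. Only exact letters were searched, so near matches were not counted. Of the 6 member windows that DLX3 reached, 3 had AP-1 letters, 2 TATA letters and 1 a homeodomain core. In the 54 member windows that it did not reach, the shares were 29.6%, 42.6% and 16.7%. In the 5215 windows of all protein-coding genes that it reached, they were 4.68%, 4.79% and 6.16%. With 6 windows, no difference between these shares can be read. Genes of 1 family descend from common copies, so their windows are not independent.

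**Figure D5:**
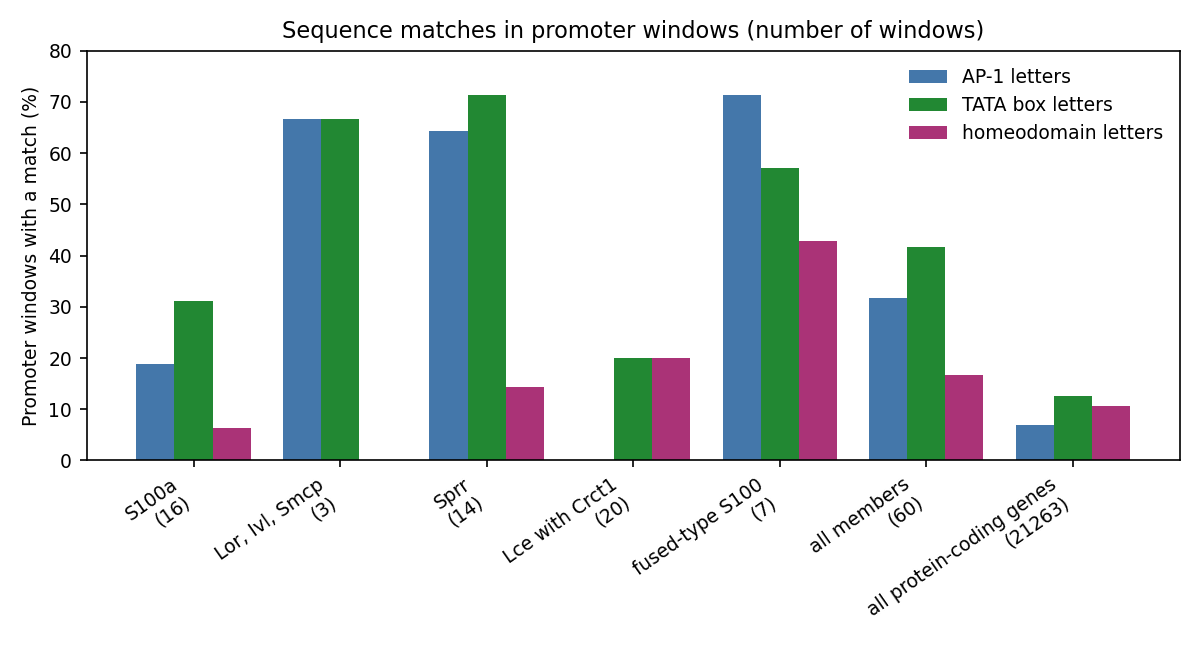
Share of promoter windows (%) with AP-1 (blue), TATA box (green) or homeodomain letters (purple), by family, with the number of windows in brackets. AP-1 letters reach 64.3% in Sprr and 71.4% in the fused S100 type, and are absent from the Lce windows.

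Genes that act on the products of the complex, or were reported to control it, were read by the same limits. Of 19 genes of envelope assembly and filaggrin processing, 15 had DLX3 within 5 kb (78.9%, beside 35.8% of all protein-coding genes) and 14 had H3K4me3 within 1 kb (73.7%, beside 59.3%). Kprp, in this list, lies in the locus and had neither. The highest DLX3 scores were at the deiminase genes Padi1 and Padi3, which share a peak of 288.63, at the envelope scaffold gene Ppl (234.16) and at the protease gene Prss8 (213.62). Of 26 regulator genes 22 had DLX3 (84.6%) and 25 had H3K4me3 (96.2%), again beside 35.8% and 59.3% of all protein-coding genes. Among all protein-coding genes with H3K4me3, the DLX3 share was 54.8%. Trp63, in the regulator list, had neither within these limits, which are taken from the ends of the gene span and do not cover its inside. The highest DLX3 scores among them were at Jun (460.99), Zfp750 (415.45), Ovol1 (386.36) and Grhl3 (384.94). These lists were drawn up with earlier results of these data known, and are no independent evidence.

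The labelled cell type was set against markers by H3K4me3 within 1 kb. All 7 suprabasal markers carried it, at a median score of 610.24, with Krt10 the highest at 1083.54. All 5 basal keratinocyte markers carried it too, at a median of 985.42, the score of Krt14. The check therefore does not separate suprabasal from basal keratinocytes. Of the fibroblast markers 3 of 5 did (Col1a1 at 476.21, Col1a2 at 290.58, Pdgfra at 169.74), as did Pmel among 4 melanocyte and Kdr among 3 endothelial markers. No immune marker of 4, Ptprc included, had H3K4me3 or DLX3. The part of other cells in the peaks of the locus was not tested.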

How the data were processed

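Per the labels, chromatin was cross-linked with formaldehyde, sonicated and precipitated, and libraries were amplified and sequenced on Illumina HiSeq instruments. Per the submitters' processing notes, Bowtie 1.1.2, MACS 1.4.2 and HOMER were used with build mm10; neither their settings nor the control for peak calling is stated in the sources at hand. The deposited lists, 1 per library, give each peak a score of the form of the MACS peak score, which depends on depth and width. Scores are the authors' and were compared within a list only. Read depth is unknown.

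Starts were converted to count from 1. Gene spans, promoter windows and sequences came from RefSeq tables of GRCm38.p6, which mm10 corresponds to, matched by gene ID; strand and starts came from the promoter windows, which were matched for 56 of 63 members. The interval code was tested on simulated data. A gene counted by any base of a peak within 5 kb (DLX3) or 1 kb (H3K4me3) of either end of its span. Shares carry 95% Wilson intervals (scipy 1.17.1). The genes described in full are those with a DLX3 peak, the 2 highest H3K4me3 scores of each family, and Lor, Ivl, Flg, Flg2, Hrnr, Rptn and Tchh. Members, lists and motifs were chosen with earlier results of these data known. Planned protein comparisons were not made, and no genome sequence beyond promoter windows was used. Alternatives covered windows, score limits, overlap rules and subsets of members.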

Additional observations from a re-analysis of the deposited data

How the results depend on the processing

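Of the 63 members, the 16 with DLX3 became 9 with a window of 1 kb (14.3%, beside 27.6% of all protein-coding genes). When only annotated starts counted, 10 of the 56 members with a start had DLX3 (17.9% beside 32.6%). The count was 8 when DLX3 scores below the list's median were dropped (12.7% beside 22.1%). It was 3 with the top 20% of scores (4.76%, beside 2194 of 21900 genes). Without the S100a members, an alternative chosen after seeing the data, 7 of 48 had DLX3 (14.6% beside 35.8%) and 4 of 48 H3K4me3 (8.33% beside 59.3%). The 13 members with H3K4me3 became 4 in the top 20% of scores (6.35% beside 17.6%). The members' share stayed below that of all protein-coding genes under each alternative run for either antibody. These alternatives reuse the same peak lists and are not independent. For DLX3 the main interval of 16.3 to 37.3% includes the 35.8% of all protein-coding genes. Of the 13 DLX3 peaks with H3K4me3, 7 of 26 were left with both lists at or above their median score (26.9%, beside 37.2% over the whole list). With both lists in their top 20%, 0 of 6 were left, beside 25.3% over the whole list. The 21 DLX3 peaks within 5 kb of a member became 11 within 1 kb, 34 within 20 kb and 4 of 6 in the top 20%. The other alternatives moved no count by more than 1.5 times. Among them was leaving out the Sprr2a copies, also chosen after seeing the data. It left 16 of 60 with DLX3 (26.7%, beside 37.5% of all genes under the same rule) and 13 of 60 with H3K4me3 (21.7% beside 62.0%). The cause of the changes was not tested. With 1 library per antibody, no library could be left out. No paired analysis was possible because each antibody has 1 library.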
